A study of Mus musculus with 8 samples.

Results

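The 10 genes described here encode adhesion molecules that blood and lymphatic vessel cells present to leukocytes: Icam1, Icam2, Vcam1, Sele, Selp, F11r, Jam2, Jam3, Alcam and Mcam. They were taken by symbol from the deposited count table, which lists 55471 genes, and each symbol occurred in it once. All 10 have an entry in the GENCODE M21 annotation of GRCm38, and all are protein-coding genes. The samples are SV-LECs, an SV40-immortalised mouse line of lymphatic endothelium from the adventitial tissue of the mesentery. Cells of 4 samples were left untreated and cells of 4 samples received 10 ng/ml TGFβ1 for 72 h. Every sample in both groups carries the SV40 immortalisation and comes from this single line, and the study's methods call the samples technical replicates, so p-values refer to the spread between such libraries. Poly(A) RNA was sequenced as single-end reads of 75 bases. Total counts ran from 19182616 to 26077972 in the untreated libraries and from 18952504 to 26386941 in the TGFβ1-treated libraries.

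Leukocytes leave or enter a vessel in steps. Selectins catch leukocytes by binding sugars on their surface, integrins on the leukocyte then lock onto ICAM and VCAM proteins, and junctional adhesion molecules (JAMs) line the gap between neighbouring endothelial cells through which the leukocyte passes. Inflammatory cytokines are well known to raise ICAM-1, VCAM-1 and E-selectin through the transcription factor NF-κB, and in lymphatic vessels ICAM-1 and VCAM-1 help dendritic cells to enter. ALCAM binds CD6 on T cells as well as other ALCAM molecules, and MCAM, also called CD146, sits at endothelial junctions and on the mural cells that surround vessels.

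The labelled cell type was compared with its defining markers. The vessel genes Eng, Flt1, Kdr and Esam, the lymphatic receptor gene Flt4 and the lymphatic surface marker Pdpn were expressed, with 21.6 ± 1.23 reads scaled to library size (CPM) of Flt4 and 342 ± 19.5 CPM of Pdpn in untreated cells (SD, n = 4). Other defining markers were at or near 0. Tie1 and Ccl21a had no read in any library, Prox1 at most 2, Cdh5 at most 2, Emcn at most 1, Lyve1 at most 3, Reln at most 2 and Pecam1 at most 5, while Tek had 8 to 18 and Mmrn1 at most 15. The summed level of the 9 endothelial markers was 90.7 to 97.6 CPM in untreated and 207 to 216 CPM in treated libraries, and that of the 7 lymphatic markers 344 to 382 and 337 to 348 CPM. The lymphatic sum in untreated cells was mostly Pdpn, and it hides opposite changes. Of the 2 lymphatic markers tested, 1 was called higher and 1 lower after TGFβ1, as were 37.6% and 38.0% of all genes tested. The part of this marker profile in the results below was not tested.

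Of the 10 genes, 8 had enough reads to be tested, and all 8 passed a false discovery rate (FDR) of 0.05 in edgeR's likelihood ratio test. Icam1, Vcam1, F11r, Jam2, Jam3, Alcam and Mcam were higher and Selp was lower after TGFβ1. These counts have to be read against the whole table, in which 75.6% of the 13818 genes tested passed the same threshold, 37.6% of them higher and 38.0% lower. In all 8 tested genes every library of one group lay above every library of the other, which held for 69.8% of all genes tested. The median log2 fold change was 0.46 in the 8 genes and -0.0064 over all genes tested. Sizes differed far more than calls did: Mcam, Jam2 and Icam1 were at or above the 90th percentile of all genes tested, a log2 fold change of 1.07, whereas F11r and Jam3 changed little.

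**Figure D1:**
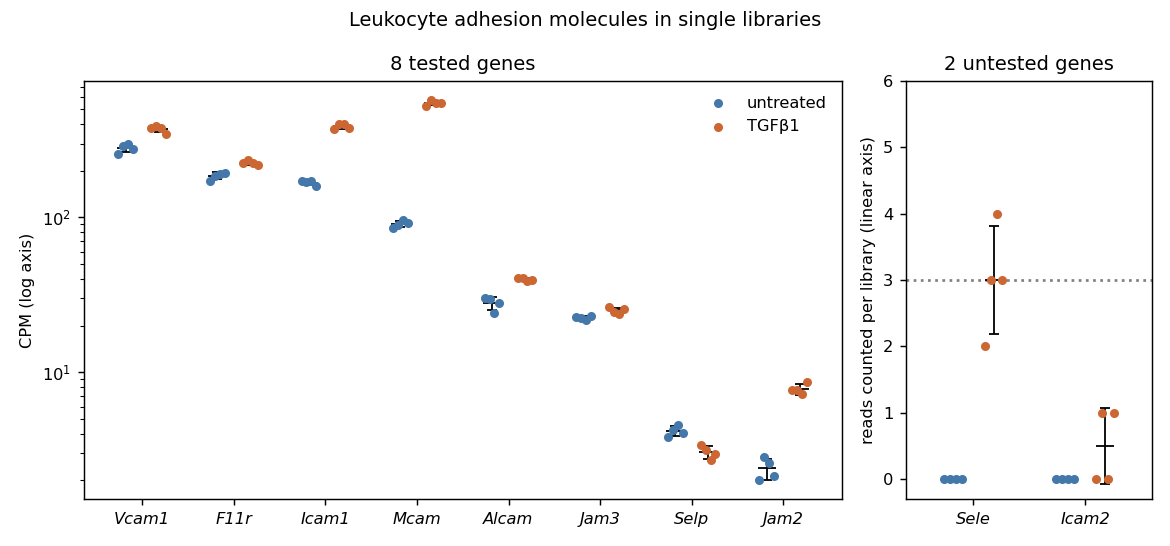
Each point is 1 library, blue for untreated and orange for TGFβ1-treated cells, with the mean and SD over 4 libraries in black. The left panel gives CPM on a log axis for the 8 tested genes, and Mcam rises from 85.7 to 96.0 CPM in untreated libraries to 527 to 573 CPM in treated ones. The right panel gives reads per library for Sele and Icam2, with the floor of 3 reads dotted.

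Promoter sequences are shown for Icam1 and Mcam, which rose by more than most genes, and for Selp, the only member that fell. RefSeq promoter windows on GRCm38.p6, with 250 bases before and 50 bases after the start of transcription, were at hand for 6 of the 10 genes: Sele, Selp, F11r, Icam1, Mcam and Alcam. The windows of Icam1 (chr9:21015690-21015989, plus strand), Mcam (chr9:44134408-44134707, plus strand) and Selp (chr1:164115014-164115313, plus strand) are printed 5′ to 3′. Capitals mark matches, on either strand, to an NF-κB type motif written GGNNTTTCC, to the SMAD-binding box CAGAC, to the GC box GGGCGG or to the TATA box TATAAA.
Icam1: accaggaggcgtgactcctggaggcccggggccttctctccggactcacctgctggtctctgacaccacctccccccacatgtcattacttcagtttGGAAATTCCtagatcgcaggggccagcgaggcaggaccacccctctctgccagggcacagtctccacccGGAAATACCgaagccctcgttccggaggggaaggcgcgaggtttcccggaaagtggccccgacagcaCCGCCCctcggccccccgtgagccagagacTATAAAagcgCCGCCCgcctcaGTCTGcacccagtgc
Mcam: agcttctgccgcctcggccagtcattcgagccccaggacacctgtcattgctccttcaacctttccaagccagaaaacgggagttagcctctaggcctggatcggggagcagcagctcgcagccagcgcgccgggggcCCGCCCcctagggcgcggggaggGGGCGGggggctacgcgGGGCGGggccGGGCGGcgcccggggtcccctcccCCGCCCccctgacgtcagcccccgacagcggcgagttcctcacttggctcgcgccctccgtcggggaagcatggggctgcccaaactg
Selp: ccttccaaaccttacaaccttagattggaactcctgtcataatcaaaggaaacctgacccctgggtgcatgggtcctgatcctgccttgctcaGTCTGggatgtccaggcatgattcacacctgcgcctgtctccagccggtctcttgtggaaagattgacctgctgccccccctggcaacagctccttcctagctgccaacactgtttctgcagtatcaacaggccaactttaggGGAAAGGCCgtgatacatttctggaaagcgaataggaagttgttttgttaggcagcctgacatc

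The Icam1 window held 2 NF-κB type matches, at bases 98 to 106 and 167 to 175 counted from its first base, besides 1 SMAD box, 2 GC boxes and a TATA box at bases 264 to 269. The TATA box lies after the RefSeq start, but GENCODE places the start of Icam1 45 bases further downstream. In the Mcam window there were 5 GC boxes and no match to the other 3 motifs. GENCODE also lists an Mcam start 189 bases upstream of the RefSeq one. Selp had 1 NF-κB type match and 1 SMAD box. Sele, which is known to respond to NF-κB, had a TATA box as its only match in this window to the motifs as written. Its window also holds the letters ggatattcc, which are close to the NF-κB type motif but do not match GGNNTTTCC. Among all 32851 mouse promoter windows, 5.82% held the NF-κB type motif, 49.6% the SMAD box, 35.7% the GC box and 13.6% the TATA box. A match in these letters describes the sequence and does not show binding, and the lack of a match does not show that a site is absent.

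MCAM and ALCAM belong to the same group of immunoglobulin-like adhesion molecules and bind partners on other cells. Mcam (ENSMUSG00000032135, chromosome 9, 44134469 to 44142727) showed the largest change among the 8 tested genes. Its level was 85.7, 89.5, 96.0 and 91.8 CPM in the 4 untreated libraries and 527, 573, 545 and 551 CPM in the 4 treated ones. The lowest treated library was thus far above the highest untreated library. Its log2 fold change was 2.60 with a standard error (SE) of 0.0463, which is a 6.05-fold rise with a 95% interval of 5.68 to 6.44. Its likelihood ratio statistic of 2915 ranked 8 among all 13818 genes tested, at an FDR too small for the computer to represent, and the FDR from edgeR's quasi-likelihood test was 6.26e-15. By size of the log2 fold change, 2.21% of the genes tested stood at or above Mcam.

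Because mural cells also carry MCAM, markers of fibroblasts and mural cells were read beside it. Their summed level over 8 genes was 774 to 832 CPM in untreated and 1192 to 1268 CPM in treated libraries. Within the list Des, Acta2, Cspg4 and Pdgfrb rose, Acta2 from 264 ± 9.92 to 981 ± 38.4 CPM (SD, n = 4), while Pdgfra fell from 160 ± 10.5 to 57.8 ± 3.91 CPM and Dcn from 312 ± 11.7 to 83.0 ± 6.48 CPM. The defining pericyte marker Rgs5 had no read in the untreated and 2 to 7 reads in the treated libraries, and Lum had at most 9 reads. In an RNA preparation of a whole culture, a change in the number of cells of a kind and a change in RNA per cell cannot be told apart. The part of the mural genes in the rise of Mcam was not tested.

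Alcam (ENSMUSG00000022636, chromosome 16, 52248996 to 52454074) had 29.97, 29.5, 24.2 and 28.1 CPM without and 40.8, 40.5, 38.8 and 39.2 CPM with TGFβ1. Treated libraries lay close together and above all untreated ones. Alcam rose by 0.51 on the log2 scale (SE 0.0671, edgeR likelihood ratio FDR 8.97e-14). Relative to each other the pair shifted: there were 0.252 to 0.350 Alcam reads for each Mcam read in untreated libraries and 0.0706 to 0.0774 in treated ones. This ratio, which does not depend on how libraries are scaled, fell by 2.08 on the log2 scale (two-sided exact permutation test, p = 0.0286, adjusted p = 0.0381 over 4 ratios). The value 0.0286 is the smallest that 4 libraries against 4 allow.

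ICAM-1 and VCAM-1 are the ligands of leukocyte integrins, ICAM-1 of LFA-1 and Mac-1, VCAM-1 of the integrin α4β1. Icam1 (ENSMUSG00000037405, chromosome 9, 21015985 to 21028817) had 171, 169, 171 and 159 CPM in the untreated libraries. After TGFβ1 it had 371, 399, 403 and 379.6 CPM, without overlap. Icam1 thus rose by 1.21 on the log2 scale (SE 0.0439, edgeR likelihood ratio FDR 5.44e-163), a 2.32-fold rise with a 95% interval of 2.18 to 2.46.

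Vcam1 (ENSMUSG00000027962, chromosome 3, 116109949 to 116129688) rose less. It stood at 258, 290.0, 298 and 276 CPM in untreated and at 377, 391, 379 and 348 CPM in treated libraries. The groups did not overlap, but the lowest treated library was only somewhat above the highest untreated one. This was a rise of 0.41 on the log2 scale (SE 0.0531, edgeR likelihood ratio FDR 2.61e-14), or 1.33-fold with a 95% interval of 1.24 to 1.43. Within libraries, 1.51 to 1.74 Vcam1 reads were counted for each Icam1 read in untreated cells and 0.916 to 1.02 in treated cells. The ratio of Vcam1 to Icam1 fell by 0.80 on the log2 scale (two-sided exact permutation test, p = 0.0286, adjusted p = 0.0381 over 4 ratios), so the rises of these genes were unequal.

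Icam2 (ENSMUSG00000001029, chromosome 11, 106377656 to 106388075), whose product is carried constantly by resting endothelium in the body, was at the limit of detection. No read was counted in the 4 untreated libraries, and 0, 1, 0 and 1 reads in the treated ones. A count of 0 allows up to 3 reads, or 0.113 to 0.152 CPM in the untreated libraries, a floor that covers counting error only. The gene was not tested, and the planned ratio of Icam1 to Icam2 could not be formed. Without a filter on low counts its FDR was 0.173 in edgeR's likelihood ratio test.

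**Figure D2:**
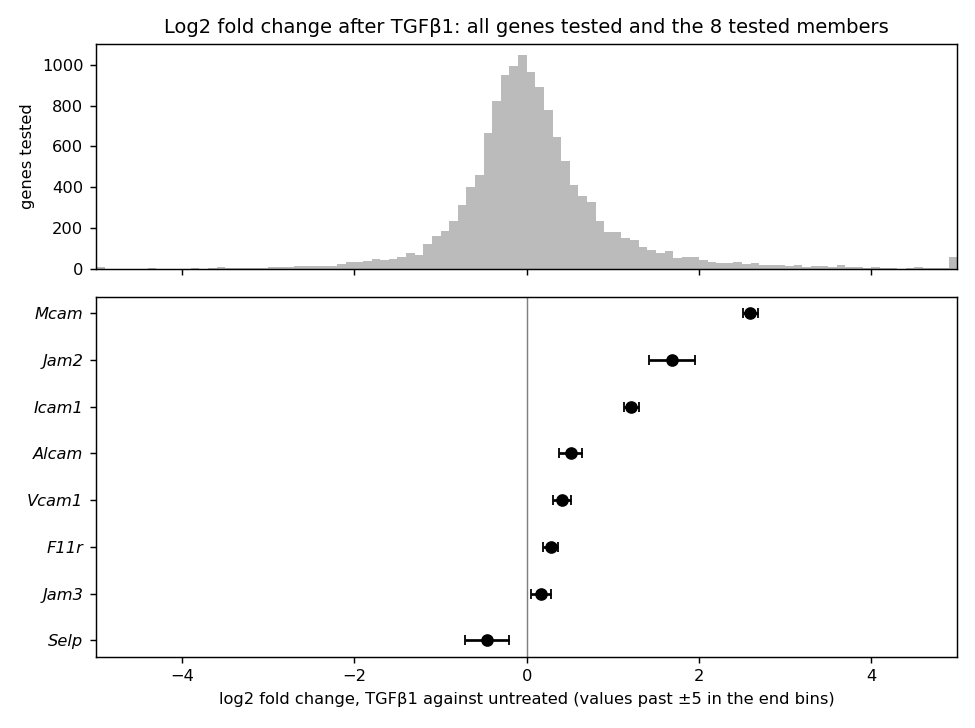
The upper panel counts all 13818 genes tested by log2 fold change in steps of 0.1, with values past 5 in either direction in the end bins. The lower panel gives the log2 fold change of the 8 tested adhesion molecule genes with 95% intervals, from -0.46 for Selp to 2.60 for Mcam, with Mcam, Jam2 and Icam1 apart from the other 5.

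**Figure D3:**
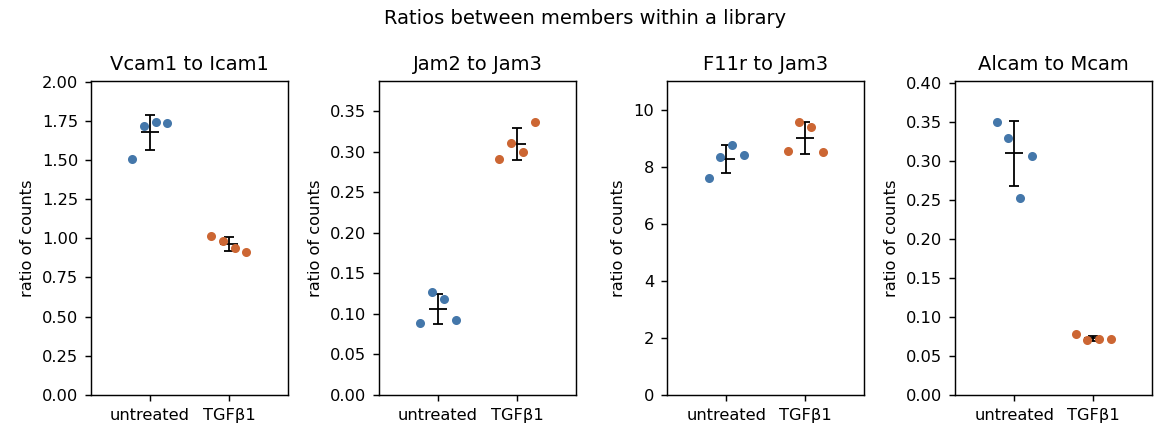
Ratios of read counts between pairs of adhesion molecule genes within each library, on linear axes from 0, with 1 point per library and the mean and SD over 4 libraries in black. Vcam1 to Icam1 and Alcam to Mcam are lower and Jam2 to Jam3 is higher in all treated libraries, whereas the points for F11r to Jam3 overlap between groups.

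The JAM proteins bind each other across the junction and also serve leukocyte integrins: JAM-A, the product of F11r, binds LFA-1, JAM-B, from Jam2, binds α4β1, and JAM-C, from Jam3, binds Mac-1 and is the preferred partner of JAM-B. F11r (ENSMUSG00000038235, chromosome 1, 171437535 to 171464603) went from 172, 186, 192 and 195 CPM in the untreated to 224, 235, 224 and 219 CPM in the treated libraries. Its groups were apart, and the rise was 0.28 on the log2 scale (SE 0.0468, edgeR likelihood ratio FDR 8.59e-09). Jam3 (ENSMUSG00000031990, chromosome 9, 27097384 to 27155421) had 22.6, 22.3, 21.8 and 23.2 CPM without and 26.2, 24.6, 23.9 and 25.7 CPM with TGFβ1. The treated libraries were just above the untreated ones. Jam3 rose by 0.16 on the log2 scale (SE 0.0590, edgeR likelihood ratio FDR 0.00919). The call was lost with scaling by total counts, at 0.094 on the log2 scale and an edgeR FDR of 0.139, and without the filter on low counts, at 0.13 and an edgeR FDR of 0.0904.

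Jam2 (ENSMUSG00000053062, chromosome 16, 84774123 to 84825928) was the JAM gene with the largest rise, from a low level. Untreated libraries had 2.02, 2.82, 2.58 and 2.13 CPM, from 42 to 75 reads, and treated libraries 7.63, 7.64, 7.18 and 8.66 CPM, from 141 to 223 reads. The spread within each group was small beside the gap between them. On the log2 scale Jam2 rose by 1.69 (SE 0.137, edgeR likelihood ratio FDR 5.61e-37), a 3.23-fold rise with a 95% interval of 2.68 to 3.89. For each Jam3 read there were 0.0894 to 0.126 Jam2 reads in untreated and 0.291 to 0.337 in treated libraries, a rise of the ratio by 1.56 on the log2 scale (two-sided exact permutation test, p = 0.0286, adjusted p = 0.0381 over 4 ratios). The ratio of F11r to Jam3 differed by 0.12 on the log2 scale, with 7.61 to 8.77 in untreated and 8.51 to 9.57 in treated libraries, and unequal change of these genes was not shown (two-sided exact permutation test, p = 0.143, adjusted p = 0.143 over 4 ratios).

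The selectins were scarce. P-selectin, the product of Selp, is stored in endothelial granules and brought to the surface within minutes of activation, and E-selectin, the product of Sele, is made anew on cytokine stimulation. Selp (ENSMUSG00000026580, chromosome 1, 164115264 to 164150026) had 3.81, 4.24, 4.59 and 4.06 CPM in untreated and 3.41, 3.16, 2.71 and 2.95 CPM in treated libraries, from 55 to 113 reads. It was the only member whose treated libraries all lay below the untreated ones. Selp had a log2 fold change of -0.46 (SE 0.132), with FDRs of 0.000765 from edgeR's likelihood ratio test and 0.00253 from its quasi-likelihood test. Sele (ENSMUSG00000026582, chromosome 1, 164048234 to 164057677) had no read in any untreated library and 2, 3, 4 and 3 reads in the treated ones. The groups did not overlap, but the treated levels of 0.108 to 0.197 CPM were around the limit that 0 reads allow, so no fold change is given. Without the filter on low counts its FDR was 0.000127 in edgeR's likelihood ratio test.

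Levels of different genes can be compared only per transcript length. CPM were therefore divided by the length in kilobases of each gene's merged exons, which gives RPKM, a level per unit of transcript length, here with the full exon set of the annotation and not the isoforms in use. In untreated SV-LECs the order was F11r (69.9 ± 3.75 RPKM), Icam1 (38.4 ± 1.301), Vcam1 (31.6 ± 1.99), Mcam (27.1 ± 1.29), Jam3 (7.03 ± 0.178), Alcam (3.92 ± 0.368), Selp (0.946 ± 0.0744) and Jam2 (0.395 ± 0.0618; SD, n = 4). The ranges over libraries of these neighbours did not overlap. After TGFβ1 Mcam led with 164 ± 5.74 RPKM, followed by Icam1 with 89.0 ± 3.52 and F11r with 84.7 ± 2.61, whose ranges overlapped. Vcam1 came next with 42.1 ± 2.09 RPKM, and Jam2 with 1.29 ± 0.103 RPKM had moved above Selp with 0.693 ± 0.0679. Summed over the 10 genes, the level was 179 ± 5.94 RPKM in untreated and 395 ± 11.4 RPKM in treated libraries (SD, n = 4).

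In these sums Mcam made up 14.8% to 15.5% of the untreated and 40.8% to 42.3% of the treated libraries. F11r went from 37.8% to 40.5% of the sum down to 21.1% to 21.9%, and Vcam1 from 17.0% to 18.2% down to 10.1% to 11.04%. Icam1, although its own level rose, kept a share of 20.2% to 22.9% in untreated and 22.1% to 23.3% in treated libraries, ranges that overlap. A share falls when other members rise more, so a lower share is no lower level.

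**Figure D4:**
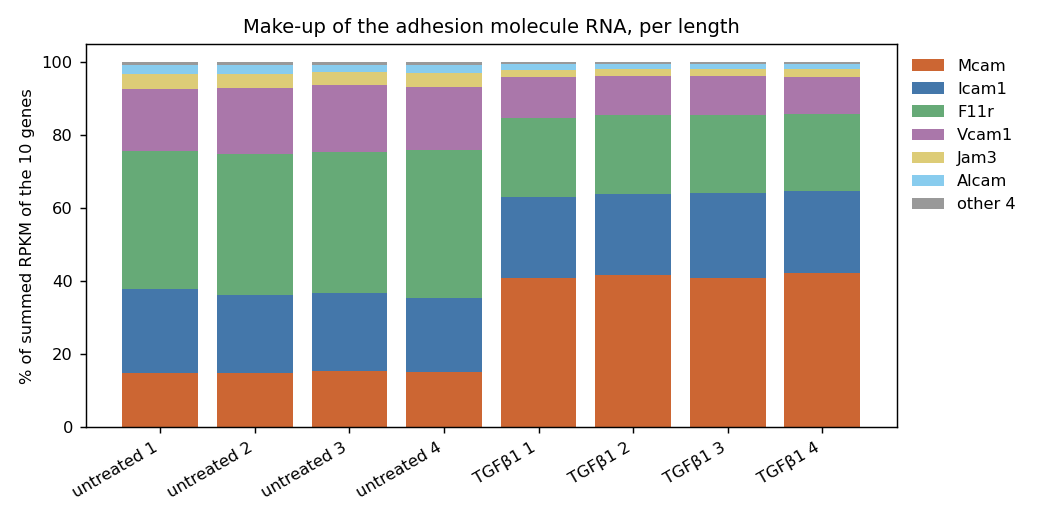
Each bar is 1 library and shows how the summed RPKM of the 10 adhesion molecule genes divides among them in percent. Mcam takes 40.8% to 42.3% of the bar in treated and 14.8% to 15.5% in untreated libraries, and the "other 4" are Selp, Jam2, Sele and Icam2.

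Other surface molecules of adhesion and transmigration were read from a list of 30 genes, of which 29 were found and 16 tested. In this list 8 genes (50%) were higher and 6 (37.5%) lower, against 37.6% and 38.0% of all genes tested, and the median log2 fold change was 0.15. Stab1 is among the 8 although it passed the filter on low counts only through the treated group. Nothing is read from these shares about the list as a whole. Stab1, which encodes a scavenger receptor of lymphatic and sinusoidal endothelium and had 5 to 8 reads per untreated library, rose from 0.278 ± 0.0403 to 5.55 ± 0.914 CPM (SD, n = 4). Cd44, the hyaluronan receptor, rose by 1.99 and Ncam1, a neural and mesenchymal adhesion molecule, by 1.09 on the log2 scale. The falls were led by sialomucins and a junction molecule. Podxl fell from 90.4 ± 3.36 to 10.5 ± 1.13 CPM (SD, n = 4), a log2 fold change of -3.10, and Cxadr had a log2 fold change of -1.35. Cd34, the most abundant gene of the list in untreated cells, fell from 555 ± 15.3 to 291 ± 9.90 CPM (SD, n = 4). Of the 13 genes not tested, 6 had at most 3 reads in every library.

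The receptors by which leukocytes bind the members are mostly absent from non-blood cells, and 9 of the 14 listed were not tested, 7 of them with at most 3 reads in every library. Of the 5 tested, Itga4 and Itgb7 passed the filter on low counts only through the treated group, so no count or median is given for this list. Itga4 had at most 1 read in each untreated and 15 to 17 reads in each treated library, so it was at least 5.63-fold higher against the mean floor of the untreated group. Itgb7 had 0 to 4 reads without and 23 to 32 reads with TGFβ1. Itgb2, which encodes the integrin β2 chain, had 24 to 34 reads without and 74 to 122 reads with TGFβ1. Its rise was 1.73 on the log2 scale (edgeR likelihood ratio FDR 1.05e-27). Itgb1, the β1 chain that is also a matrix receptor of most cells, rose by 0.47 on the log2 scale from 2063 ± 45.4 to 2851 ± 44.6 CPM (SD, n = 4). Spn, which encodes leukosialin, fell by 0.43 on the log2 scale (edgeR likelihood ratio FDR 0.000942), although the ranges of its groups overlapped. Leukocyte markers were near 0: Ptprc, which defines leukocytes, had at most 1 read, Cd3e at most 1, Itgam at most 3, Adgre1 none and Lyz2 at most 13, and Coro1a had at most 36. Their summed level over 8 genes, 6.46 to 8.12 CPM in untreated and 16.7 to 18.4 CPM in treated libraries, was mostly Cd68, a lysosomal protein gene that rose from 6.96 ± 0.863 to 15.9 ± 0.857 CPM (SD, n = 4).

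Genes of the NF-κB pathway and of the receptors for TNF, IL-1 and interferon-γ, the usual inducers of Icam1, Vcam1 and Sele, were read as a list. Their RNA does not measure the activity of the pathway, and its part in the changes of the members was not tested. Of 24 listed, 23 were tested, 11 (47.8%) were higher, 8 (34.8%) were lower and 4 did not pass the test, against 37.6% higher and 38.0% lower over all genes tested, and the median log2 fold change was 0.10. Tnfaip3, a feedback inhibitor of the pathway, rose from 29.7 ± 1.87 to 83.2 ± 5.69 CPM (SD, n = 4), a log2 fold change of 1.48, and the kinase gene Chuk rose by 0.49 on the log2 scale. Bcl3, a nuclear IκB family member, fell from 78.9 ± 13.5 to 36.3 ± 4.44 CPM (SD, n = 4), and the IL-1 receptor gene Il1r1 fell by 0.37 on the log2 scale. The genes of the list with the highest mean CPM, Nfkbiz and Ifngr2, fell by 0.27 and 0.14 on the log2 scale. Per transcript length they were not ahead of Tnfrsf1a, which was called higher with a log2 fold change of 0.10. Untreated cells had 59.8 ± 2.86 RPKM of Tnfrsf1a, 59.5 ± 1.33 of Nfkbiz and 59.0 ± 1.41 of Ifngr2 (SD, n = 4).

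Inside the cell, ICAM and VCAM tails bind ezrin, radixin and moesin, filamin A and α-actinins, and JAM tails bind PDZ proteins of the junction and of cell polarity. Of 21 such partners, 20 were found and 19 tested, with 8 (42.1%) higher and 11 (57.9%) lower, against 37.6% and 38.0% of all genes tested, and a median log2 fold change of -0.15. Flna, which encodes filamin A, rose by 0.94 on the log2 scale, from 1091 ± 51.2 to 2089 ± 77.9 CPM (SD, n = 4). The ERM genes diverged. Msn rose from 1087 ± 48.5 to 1707 ± 41.1 CPM, while Ezr fell from 917 ± 80.8 to 355 ± 22.0 CPM and Rdx from 276 ± 7.48 to 172 ± 4.38 CPM (SD, n = 4). Pard6b, a polarity gene, had a log2 fold change of -1.31.

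Enzymes that release adhesion molecules from the surface, with their inhibitors and regulators, formed a list of 9 genes. All were tested, and 6 (66.7%) were higher and 2 (22.2%) lower, against 37.6% and 38.0% of all genes tested, with a median log2 fold change of 0.37. Mmp9, a secreted gelatinase, rose from 4 to 16 reads per untreated library to 286 to 419 reads per treated library, a log2 fold change of 5.28 (SE 0.259). Mmp9 is among the 6 although it passed the filter on low counts only through the treated group. Mmp14, a membrane-bound metalloproteinase, rose from 731 ± 19.2 to 1650 ± 36.7 CPM, and Timp3, an inhibitor of ADAM17, from 3325 ± 281 to 5693 ± 20.6 CPM (SD, n = 4). The principal sheddase genes fell slightly, with log2 fold changes of -0.21 for Adam17 and -0.12 for Adam10.

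**Figure D5:**
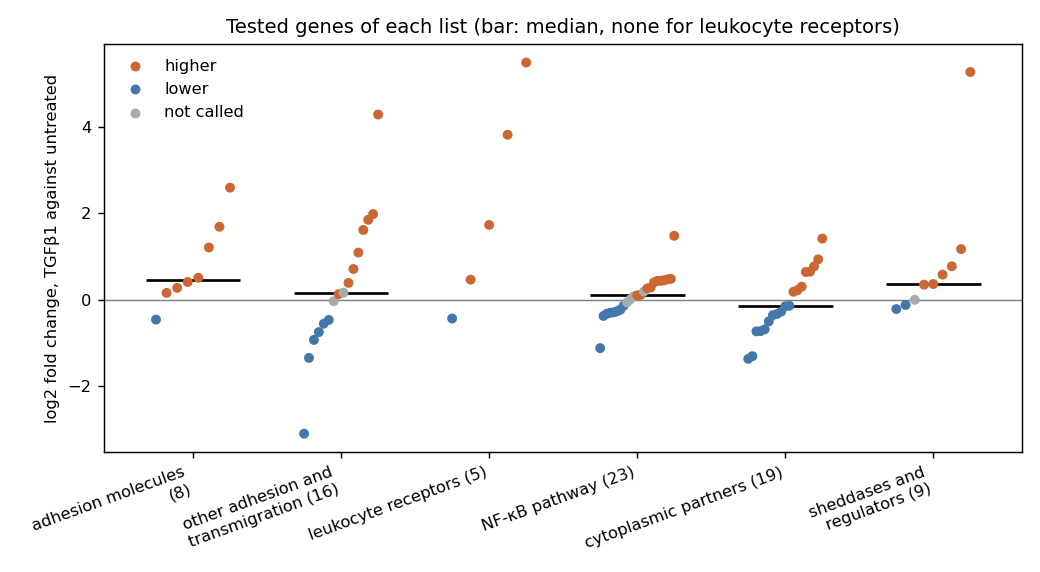
Each point is a tested gene, placed by its log2 fold change after TGFβ1 and coloured by the call at an FDR of 0.05, and each bar is the median of its list, from 0.46 for the adhesion molecules to -0.15 for cytoplasmic partners. No median is drawn for leukocyte receptors, since Itga4 and Itgb7 passed the filter on low counts only through the treated libraries. Stab1 and Mmp9 also passed only through these libraries and are in the medians of their lists. The highest point among leukocyte receptors is edgeR's estimate for Itga4, whose untreated libraries had at most 1 read, and it depends on the prior count.

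Exons of 5 of the 10 genes overlap genes annotated on the opposite strand, and the strand setting used in counting is not given in the sources used here. Jam3 shares 1159 of 3200 exon bases with Gm48796, which had 4 to 32 reads against 457 to 662 for Jam3. Icam1 shares 511 of 4360 with Gm47079, which had 2 to 7 reads, and Mcam shares 17 of 3350 with Gm10687, which had 2 to 15. The partners of Vcam1 and Selp had at most 3 reads. The part of these overlaps in the counts was not tested.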

How the data were processed

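Libraries of poly(A) RNA from 8 SV-LEC samples, 4 untreated and 4 given TGFβ1, were made with a stranded kit. Per the submitters' processing notes, the tools were bcl2fastq 2.20.0.422, STAR 2.7.3a and featureCounts 1.5.1 with the build GRCm38. The authors deposited raw counts of reads per gene with no normalization; the annotation release and strand setting are not given in the sources used here. Groups came from the sample titles.

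The analysis used edgeR 4.0.16 under R 4.3.3. Genes with few reads were removed by filterByExpr, TMM factors set the scale and groups were compared by the likelihood ratio test, which the study's methods name, with p-values adjusted after Benjamini and Hochberg over the 13818 genes kept. CPM use TMM-normalized library sizes. Standard errors come from the fitted weights and 95% intervals span 1.96 standard errors. Ratios within a library were compared by exact permutation. The floor is 3 reads, 0.113 to 0.162 CPM. Libraries of a group were no copies of each other (chi-square over degrees of freedom 2.37 to 7.84). Samples with the same number did not deviate together (correlations of -0.193 to -0.0336), so they were not paired. The scripts were tested on simulated data. Alternatives were the quasi-likelihood test, DESeq2 1.42.0, its size factors, total counts, other filters, a prior count of 2, the replicate block and each library left out.

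The members and gene lists were chosen with earlier results of these data known. The text names all 10 members, all marker genes, and from each list the tested genes with the 2 largest called rises, the 2 largest called falls and the 2 highest mean CPM, except for 2 genes that are not reported here. Promoters and motifs were chosen after the values were seen.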

Additional observations from a re-analysis of the deposited data

How the results depend on the processing

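Over 128 refits of the 8 tested members, the direction never changed and 126 kept their side of the threshold. The exceptions were both Jam3, at 0.094 on the log2 scale (edgeR FDR 0.139) with total counts and 0.13 (edgeR FDR 0.0904) without the filter on low counts; the cause was not tested. Without that filter 7 members were again higher, since Sele joined and Jam3 left. The number of leukocyte receptor genes called also moved with that filter. It is not given, since Itga4 and Itgb7 passed the filter only through the treated group. With each library left out, log2 fold changes spanned 1.19 to 1.23 for Icam1, 0.37 to 0.45 for Vcam1, -0.51 to -0.41 for Selp, 0.24 to 0.30 for F11r, 1.62 to 1.79 for Jam2, 0.14 to 0.18 for Jam3, 0.44 to 0.54 for Alcam and 2.57 to 2.62 for Mcam, all past the threshold. The replicate block changed no call of a member, and Jam3 had an edgeR FDR of 0.0218 in it. For the ratios, pairing by replicate number leaves the differences at -0.80 for Vcam1 to Icam1, 1.56 for Jam2 to Jam3 and -2.08 for Alcam to Mcam, each with an exact paired permutation p = 0.125, the smallest that 4 pairs allow, so the replicate block says nothing of their stability. No library correlated best with its own number in the other group. Depth limits Sele and Icam2, which stayed around the floor of 3 reads.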

Other observations

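Epithelial marker genes were low in every library, with a summed level over 5 genes of 0.304 to 1.18 CPM in untreated and 2.51 to 4.19 CPM in TGFβ1-treated libraries. The keratin genes Krt8 and Krt18 rose, with log2 fold changes of 1.99 and 2.47, and had at most 35 and 47 reads in a library. Both passed the filter on low counts only through the treated group, so these fold changes are estimates against low untreated levels. Epcam, Cdh1 and Cldn4 were not tested and had at most 7, 21 and 3 reads.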
